A study of Homo sapiens with 12 samples.

Results

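The GADD45 genes were followed across MDA-MB-231 cells, an established human breast cancer line of the triple-negative kind, given TNFα, the plant flavone apigenin, both or neither. The set holds 4 genes of the 20572 that entered the fit: GADD45A, GADD45B, GADD45G and GADD45GIP1, each the single probe set that the platform's table pairs with that symbol alone (16665932, 16856803, 17086676 and 16869387). Members were chosen by symbol, and among several probe sets of a gene by the mean level over all 12 arrays; each had only 1, so no measured value decided between rows. The family was nevertheless taken up with earlier results of these data known, among them that GADD45B stood among the genes highest with apigenin. The values of GADD45B with apigenin are therefore given as a description, with no test.

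The 12 samples form 4 groups of 3: TNFα at 40 ng/ml together with apigenin at 40 µM (called TNFα+apigenin), TNFα at 40 ng/ml alone, apigenin at 40 µM alone, and untreated control cells. Treatment lasted 24 h and was prepared in HBSS, a buffered salt solution. The labels call the control untreated, and no source used here says whether it received a solvent. All groups are 1 cell line. Nothing states that the 3 samples of a group were cultured apart. Each p-value therefore sets a difference against the spread of these samples only, and that spread may be technical. Values are log2 expression values as deposited, between 0.536 and 12.495, with array medians of 2.091 to 2.159. Within a group, pairs of arrays had an r of 0.983 to 0.991 across genes, and between groups 0.966 to 0.990, and no pair was identical. The markers fit the label in part. VIM (7.93 to 8.30) and AXL (9.88 to 10.19) read high on all arrays, as did CD44, CAV1, FN1 and MSN. The hormone receptor genes ESR1 (1.84 to 2.44) and PGR (1.37 to 1.84) and the epithelial cadherin CDH1 (1.81 to 2.10) read low, as did FOXA1. Others went the other way. The mesenchymal marker SPARC read only 2.38 to 2.73. The luminal markers KRT19 (4.38 to 5.97), EPCAM (4.58 to 5.24) and GATA3 (3.65 to 4.67) lay well above the array medians, and KRT8 and KRT18 lay above them by less. Of the leukocyte markers 6 of 9 passed the filter on low values; CD68, also known from lysosomes of other cells, read 9.52 to 9.95, and the other 5 stayed between 1.31 and 2.87. The mean of 9 measured luminal markers, of 10 listed, was 2.88 to 3.05 on TNFα+apigenin arrays, 3.17 to 3.29 on TNFα arrays, 3.04 to 3.12 on apigenin arrays and 3.25 to 3.35 on control arrays, so it was lower wherever apigenin was present, and 2 of the 9 were called lower with apigenin. The mean of the 7 mesenchymal markers, also with 2 called lower with apigenin, was 7.44 to 7.48, 7.71 to 7.79, 7.36 to 7.52 and 7.58 to 7.72 in the TNFα+apigenin, TNFα, apigenin and control groups. In apigenin against control 6.83% of all genes were called lower. The part of these marker shifts in the results on apigenin was not tested.

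GADD45A, GADD45B and GADD45G encode small acidic nuclear proteins that have no known enzyme activity and work by binding others. They are induced by DNA damage, cytokines and other stress, and they bind the kinase MAP3K4, which switches on the p38 and JNK kinases, as well as PCNA, the inhibitor p21 (CDKN1A) and the complex of CDK1 with cyclin B1, through which they can hold cells before mitosis. GADD45A has also been tied to DNA demethylation by TET enzymes and TDG, and GADD45B is known as a target of NF-κB that restrains JNK signalling in cells given TNFα. GADD45GIP1, also called CRIF1, is not of the same protein family: it was named for binding GADD45 proteins and is a component of the large subunit of the mitochondrial ribosome.

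Apigenin was the treatment under which GADD45B and GADD45G stood high, so the bases upstream of these genes are shown beside those of GADD45GIP1, which did not move that way. The sequences are RefSeq's, build GRCh38.p14, and cover the 250 bases before the annotated start, 5′ to 3′ along the gene's strand: chr19:2475877-2476126 on the plus strand for GADD45B, chr9:89604762-89605011 on the plus strand for GADD45G, and chr19:12957224-12957473 on the minus strand for GADD45GIP1. Promoter sequence was not used here for GADD45A. Capitals mark every match to any of 9 motifs.
GADD45B: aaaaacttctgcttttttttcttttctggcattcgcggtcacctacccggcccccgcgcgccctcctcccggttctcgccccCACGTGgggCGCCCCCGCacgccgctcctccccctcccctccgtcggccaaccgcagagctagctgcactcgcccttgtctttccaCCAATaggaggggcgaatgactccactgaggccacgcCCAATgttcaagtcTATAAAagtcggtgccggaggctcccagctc
GADD45G: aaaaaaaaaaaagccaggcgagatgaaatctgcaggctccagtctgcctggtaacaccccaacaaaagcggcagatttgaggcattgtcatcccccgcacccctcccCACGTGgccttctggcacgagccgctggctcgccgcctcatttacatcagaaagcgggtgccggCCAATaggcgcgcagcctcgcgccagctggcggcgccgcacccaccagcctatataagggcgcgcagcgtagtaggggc
GADD45GIP1: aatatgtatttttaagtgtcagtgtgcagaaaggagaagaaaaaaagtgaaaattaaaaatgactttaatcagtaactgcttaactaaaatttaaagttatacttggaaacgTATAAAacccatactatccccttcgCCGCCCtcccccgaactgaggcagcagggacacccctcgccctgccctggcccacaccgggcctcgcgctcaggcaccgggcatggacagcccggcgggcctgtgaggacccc

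The motifs were searched on both strands and were picked after these sequences had been read. GADD45B and GADD45G each hold the E-box CACGTG, at 168 to 163 and at 143 to 138 bases before the start, and each holds the CCAAT box CCAAT at a like distance, 82 to 78 and 79 to 75 bases before the start. GADD45B has another CCAAT box at 45 to 41 and the TATA box TATAAA at 31 to 26. Only these exact letters were searched, so the similar stretch tatataagg near the end of the GADD45G window is not marked. GADD45B also has the EGR1 site GCGNGGGCG on the opposite strand, at 159 to 151, which lies 3 bases from the GADD45B E-box and does not overlap it. GADD45GIP1 holds neither CCAAT nor CACGTG; it has TATAAA at 138 to 133 and the GC box GGGCGG on the opposite strand at 113 to 108. Of 27303 promoters cut to the same length, 33% hold CCAAT, 6.49% CACGTG, 11.1% TATAAA, 42.3% GGGCGG and 8.25% GCGNGGGCG, and 2.08% hold CCAAT together with CACGTG. The AP-1 site TGANTCA (6.60% of promoters), the cAMP response element TGACGTCA (1.77%), the octamer ATTTGCAT (1.66%) and the C/EBP-ATF element TGATGNAAT (0.916%) had no match in these 3 windows. A match is a run of letters, and no binding was measured.

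GADD45B, the member known as an NF-κB target, was high wherever apigenin was present. It read 9.13, 9.16 and 9.17 on TNFα+apigenin arrays, 7.0, 7.14 and 7.09 on TNFα arrays, 9.37, 9.24 and 9.34 on apigenin arrays, and 7.16, 7.10 and 7.13 on control arrays. The 6 arrays with apigenin lay at 9.13 or above and the 6 without it at 7.16 or below, with nothing in between. In bulk RNA, more RNA in each cell and more cells of a kind that carries it cannot be told apart.

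The mean of GADD45B was 9.32 ± 0.07 (SD, n = 3) with apigenin and 7.13 ± 0.03 in control, a difference of 2.19 (SE 0.10, 95% interval 1.97 to 2.40, 4.56-fold), the 12th highest of 20572 genes. With TNFα present the step was nearly as large: 9.15 ± 0.02 in TNFα+apigenin cells and 7.08 ± 0.07 in TNFα cells, a difference of 2.08 (SE 0.10, 1.86 to 2.29), the 11th highest. TNFα+apigenin against control gave 2.02 (SE 0.10, 1.81 to 2.24). Values with apigenin led to the choice of the family, so these intervals describe the arrays and test nothing.

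TNFα itself did not move GADD45B past the test at 24 h. TNFα cells stood at 7.08 ± 0.07 and control cells at 7.13 ± 0.03, with overlapping arrays and a difference of -0.05 (SE 0.10, 95% interval -0.27 to 0.16, limma adjusted p = 0.910). Where apigenin was also given, TNFα+apigenin arrays (9.13 to 9.17) lay below apigenin arrays (9.24 to 9.37). That difference was -0.17 (SE 0.10), a description with no test, since values with apigenin led to the choice of the family. The response to TNFα in the presence of apigenin, less the response in its absence, was -0.11 (95% interval -0.42 to 0.19). In order of level the groups ran apigenin, TNFα+apigenin, control, TNFα, and the difference between control and TNFα did not pass.

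**Figure D1:**
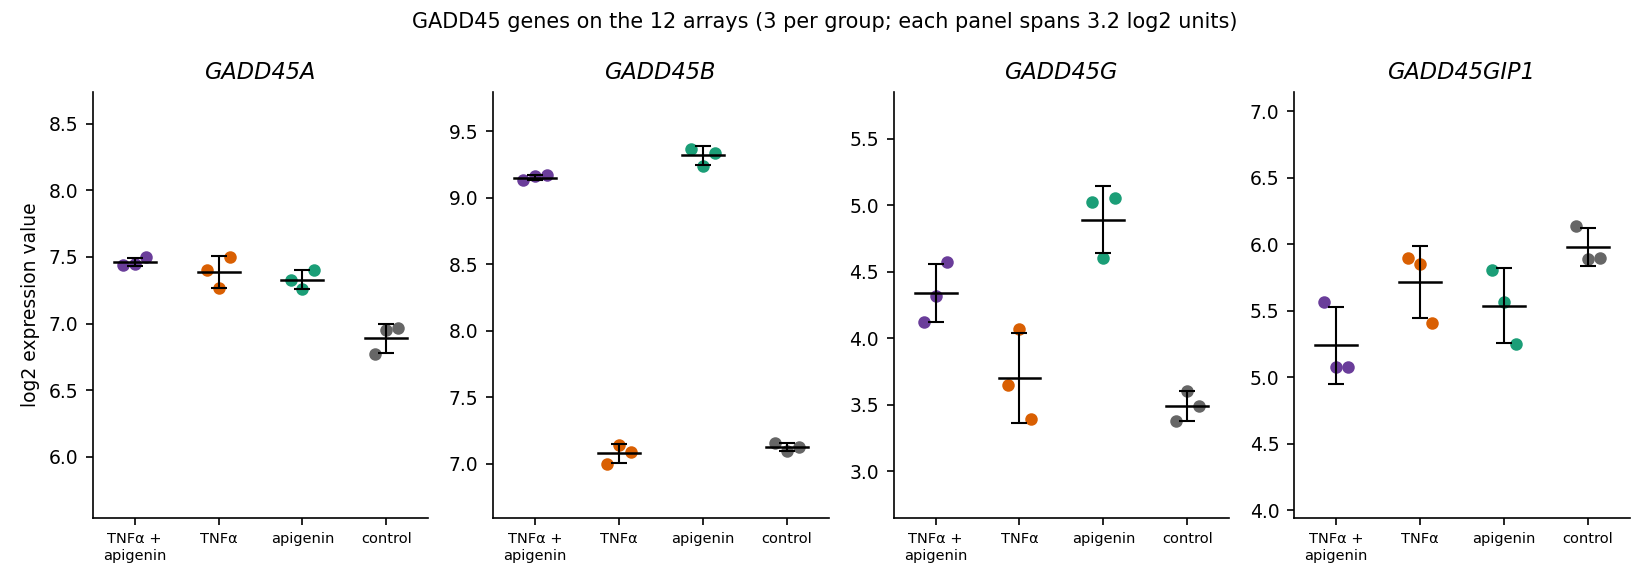
Log2 expression value (vertical axis) of each GADD45 gene on the 3 arrays of each group (horizontal axis); points are arrays, the line is the mean and the bars are the SD, and each panel spans the same 3.2 log2 units. GADD45B lies at 9.13 to 9.37 on the 6 arrays with apigenin and at 7.0 to 7.16 on the others, while GADD45G is highest with apigenin alone (4.60 to 5.05).

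GADD45G, a member often silenced in tumours and known to arrest growth, was also high with apigenin, most so with apigenin alone. It read 4.12, 4.32 and 4.57 on TNFα+apigenin arrays, 3.65, 4.07 and 3.39 on TNFα arrays, 5.02, 4.60 and 5.05 on apigenin arrays, and 3.38, 3.60 and 3.49 on control arrays. Apigenin arrays lay above every other array, TNFα+apigenin arrays above every array without apigenin, and TNFα and control arrays overlapped. These values lay in the lower part of the scale, though between the 57.1 and 77.4 percentile of genes within an array. Whether array signals understate a change in RNA at this level was not tested.

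GADD45G rose to 4.89 ± 0.25 (SD, n = 3) in apigenin cells, against 3.49 ± 0.11 in control cells, a difference of 1.40 (SE 0.18, 2.64-fold, limma adjusted p = 2.7e-04), the 60th highest of all genes. TNFα+apigenin cells stood at 4.34 ± 0.22, which was 0.85 above control (SE 0.18, 1.80-fold, limma adjusted p = 0.00691) and 0.63 above TNFα cells at 3.70 ± 0.34 (SE 0.18, 95% interval 0.25 to 1.02, limma adjusted p = 0.0409). The last call was close to the threshold. It was lost without control replicate 1 (adjusted p = 0.0515 by limma), TNFα replicate 1 (0.124) or 3 (0.165), apigenin replicate 1 (0.0519), or TNFα+apigenin replicate 1 (0.0505), 2 (0.0981) or 3 (0.147), with differences of 0.48 to 0.74 in these fits, and it was lost when the 4 arrays numbered 3 were left out together (0.36, adjusted p = 0.385). That last fit also took TNFα+apigenin against control to 0.73 (limma adjusted p = 0.0518).

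TNFα alone left GADD45G at 3.70 ± 0.34 against 3.49 ± 0.11 in control, a difference of 0.21 (SE 0.18, limma adjusted p = 0.744). Between TNFα+apigenin (4.34 ± 0.22) and apigenin alone (4.89 ± 0.25) the difference was -0.55 (SE 0.18, 95% interval -0.94 to -0.16), and the arrays did not overlap. It was the 51st largest decrease of 20572 genes, yet the limma adjusted p was 0.492. In that comparison limma called 0 genes lower and 43 higher (0.209% of all genes), and at an unadjusted p below 0.05 there were 1489 genes. The interaction of GADD45G, the TNFα response with apigenin less that without it, was -0.77 (95% interval -1.32 to -0.21, limma adjusted p = 0.999).

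GADD45A, the founding member, known for induction by DNA damage, read higher in all 3 treated groups by a like, small amount. The arrays gave 7.44, 7.45 and 7.50 with TNFα+apigenin, 7.40, 7.27 and 7.50 with TNFα, 7.33, 7.26 and 7.40 with apigenin, and 6.77, 6.95 and 6.97 in control. Every treated array lay above every control array, and the highest and lowest of the 12 values differed by 0.74, against 2.38 for GADD45B.

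Against control (6.89 ± 0.11), TNFα+apigenin cells stood at 7.46 ± 0.03, higher by 0.57 (SE 0.11, 1.48-fold, limma adjusted p = 0.00363). This call held whichever single array was left out, with differences of 0.51 to 0.61. Apigenin cells stood at 7.33 ± 0.07, higher by 0.44 (SE 0.11, 1.35-fold, limma adjusted p = 0.0196). Here the call was lost without control replicate 1 (0.37, limma adjusted p = 0.0837), apigenin replicate 1 (0.44, 0.0605) or apigenin replicate 3 (0.40, 0.0691), when only these 6 arrays were fitted (0.0674), and without the 4 arrays numbered 3 (0.0970). TNFα cells stood at 7.39 ± 0.12, with a difference of 0.50 (SE 0.11, 95% interval 0.26 to 0.73, 1.41-fold) that just missed the threshold (limma adjusted p = 0.0516). Without TNFα replicate 2 it was 0.56 and passed (limma adjusted p = 0.0426).

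TNFα+apigenin cells differed from TNFα cells in GADD45A by 0.07 (95% interval -0.16 to 0.31, limma adjusted p = 0.799), with overlapping arrays. They differed from apigenin cells by 0.13 (-0.10 to 0.37, limma adjusted p = 0.874), where the arrays did not overlap (7.44 to 7.50 with both agents and 7.26 to 7.40 with apigenin). TNFα and apigenin cells were not set against each other. The differences of TNFα and of apigenin from control, which share the control arrays, would add up to 0.93, and the joint difference was 0.57. The interaction, -0.36 (95% interval -0.70 to -0.03), did not pass over all genes (limma adjusted p = 0.999).

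GADD45GIP1, the mitochondrial ribosome component, had a lower mean in each treated group than in control, and the difference of TNFα+apigenin from control passed in the reported fit. It read 5.57, 5.08 and 5.08 on TNFα+apigenin arrays, 5.90, 5.85 and 5.41 on TNFα arrays, 5.81, 5.57 and 5.25 on apigenin arrays, and 6.14, 5.89 and 5.90 on control arrays. In all 4 groups replicate 1 was the highest of the 3. With the replicate number as a block in the fit, apigenin against control and TNFα+apigenin against TNFα passed as well, as given below. TNFα+apigenin and apigenin arrays lay below all control arrays, and TNFα arrays overlapped them.

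TNFα+apigenin cells stood at 5.24 ± 0.29 and control cells at 5.98 ± 0.14, a difference of -0.73 (SE 0.18, 0.601 of the control level on the linear scale, limma adjusted p = 0.0177). The call was lost without control replicate 1, TNFα+apigenin replicate 2 or TNFα+apigenin replicate 3 (-0.65 in each, limma adjusted p = 0.0758, 0.0728 and 0.0742), and without the 4 arrays numbered 3 (-0.69, adjusted p = 0.0530). Apigenin cells (5.54 ± 0.28) differed from control by -0.44 (SE 0.18, limma adjusted p = 0.170). TNFα cells (5.72 ± 0.27) differed by -0.26 (SE 0.18, limma adjusted p = 0.676). These differences add up to -0.69, beside -0.73 with both agents, and the interaction was -0.04 with a wide interval of -0.60 to 0.52. Apigenin in the presence of TNFα gave -0.48 (95% interval -0.88 to -0.08, limma adjusted p = 0.135), and TNFα in the presence of apigenin -0.30 (-0.69 to 0.10, limma adjusted p = 0.794).

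**Figure D2:**
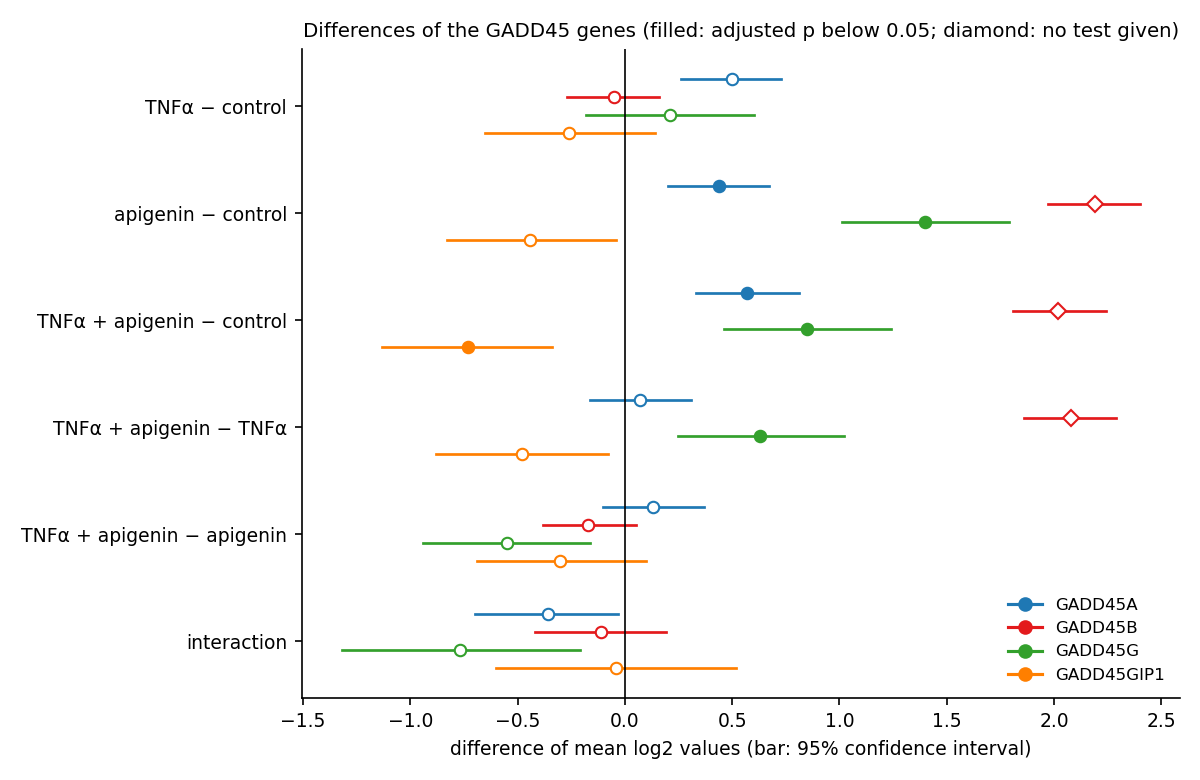
Difference of mean log2 values (horizontal axis) with its 95% confidence interval for each GADD45 gene (colours) in each comparison (vertical axis); filled points had an adjusted p below 0.05 over all genes, and diamonds are values of GADD45B given with no test. GADD45B lies at 2.02 to 2.19 wherever apigenin is on one side only, and in the reported fit GADD45GIP1 is filled in TNFα+apigenin against control alone, at -0.73. The circles of GADD45B for TNFα+apigenin against apigenin and for the interaction are descriptive too.

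Read over the whole set, the calls depended on the comparison. TNFα against control called 0 of 4 members by limma, 1 at an unadjusted p below 0.05, where 0.997% of all genes were called, 0.778% higher and 0.219% lower. Of all 20572 genes, 2387 had an unadjusted p below 0.05 there. In apigenin against control, beside GADD45B, both GADD45A and GADD45G rose and GADD45GIP1 was not called, where 11.4% of all genes were called, 4.55% higher and 6.83% lower. In TNFα+apigenin against control these 2 rose again and GADD45GIP1 fell, where 12.5% of all genes were called, 7.15% higher and 5.37% lower. In TNFα+apigenin against TNFα, beside GADD45B, GADD45G alone rose, where 10.1% of all genes were called, 4.21% higher and 5.92% lower. For TNFα+apigenin against apigenin, limma called 0 of 4 members, with 1 at an unadjusted p below 0.05, where 0.209% of all genes were called, all of them higher. For the interaction it called 0 of 4, with 2 at an unadjusted p below 0.05, where 0.0535% of all genes were called, 0.00972% higher and 0.0437% lower. Of all 20572 genes, 1489 had an unadjusted p below 0.05 for TNFα+apigenin against apigenin and 870 for the interaction. The comparisons share arrays, control or treated, so they are not independent of each other. TNFα+apigenin against apigenin and the interaction use the apigenin values of GADD45B, so for that gene their counts are no test.

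The gene lists given from here on were chosen with earlier results of these data known, so their calls and counts are no independent test. Of 5 listed genes for cell cycle proteins that GADD45 members bind, all measured, the mRNA of 1 rose and of 2 fell in apigenin against control and 2 did not pass, with a median difference of -0.38 beside -0.02 over all genes. In this comparison 4.55% of all genes were called higher and 6.83% lower. CDKN1A, which encodes the kinase inhibitor p21, read 5.48 to 5.59 on apigenin arrays and 4.26 to 4.55 on control arrays (difference 1.16, SE 0.14, limma adjusted p = 1.8e-04). CCNB1, the mitotic cyclin B1, read 6.07 to 6.61 on apigenin arrays and 7.50 to 7.71 on control arrays (-1.28, SE 0.15, limma adjusted p = 1.3e-04). AURKA, the mitotic kinase Aurora A, read 4.58 to 5.01 on apigenin arrays and 5.59 to 5.79 on control arrays (-0.89, SE 0.13, limma adjusted p = 7.7e-04). CDK1, the kinase partner of cyclin B1, differed by -0.22 (SE 0.12, limma adjusted p = 0.340) and the replication clamp PCNA by -0.38 (SE 0.12, 0.0655), and neither passed. In TNFα+apigenin against TNFα the same 3 genes were called, CDKN1A at 0.81, CCNB1 at -0.96 and AURKA at -0.86, and in TNFα against control limma called 0 of 5, with 2 at an unadjusted p below 0.05. Over all genes 10.1% were called in TNFα+apigenin against TNFα and 0.997% in TNFα against control, where 2387 genes had an unadjusted p below 0.05.

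In the p38 and JNK kinase module downstream of GADD45 proteins, 14 of 16 listed genes were measured. With apigenin 1 rose and 2 fell, where 4.55% of all genes were called higher and 6.83% lower, and the median difference was -0.27. MAP2K3, which activates p38, read 4.86 to 5.33 on apigenin arrays and 3.99 to 4.38 on control arrays (0.97, SE 0.16, limma adjusted p = 0.00115). MAPK13, the p38 isoform delta, read 4.23 to 4.37 on apigenin arrays and 5.24 to 5.46 on control arrays (-1.06, SE 0.12, limma adjusted p = 1.2e-04), and the transcription factor gene ATF2, whose product p38 and JNK phosphorylate, differed by -0.59. With both agents against control, 2 rose and 2 fell: MAP2K3 (1.06) and JUN (0.56), and MAPK13 (-1.05) and MAP2K6 (-0.51). In this comparison 7.15% of all genes were called higher and 5.37% lower. MAP2K6 lay at the bottom of the scale, at 1.26 to 1.49 with both agents, under the 25th percentile of the arrays (1.597 to 1.645), and at 1.71 to 2.26 in control, so it did not pass the filter on low values through the TNFα+apigenin arrays. The filter thus favoured a fall, so that of MAP2K6 is a description with no test, though the count of 2 includes it. With 1 array left out 1 to 2 of the list were higher and 1 to 2 lower. MAP3K4, the kinase that GADD45 proteins bind, was singled out after its values were seen; it differed by -0.36 (SE 0.21) with apigenin and 0.01 (SE 0.21) with both, and neither passed. These are mRNA levels and say nothing of kinase activity.

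**Figure D3:**
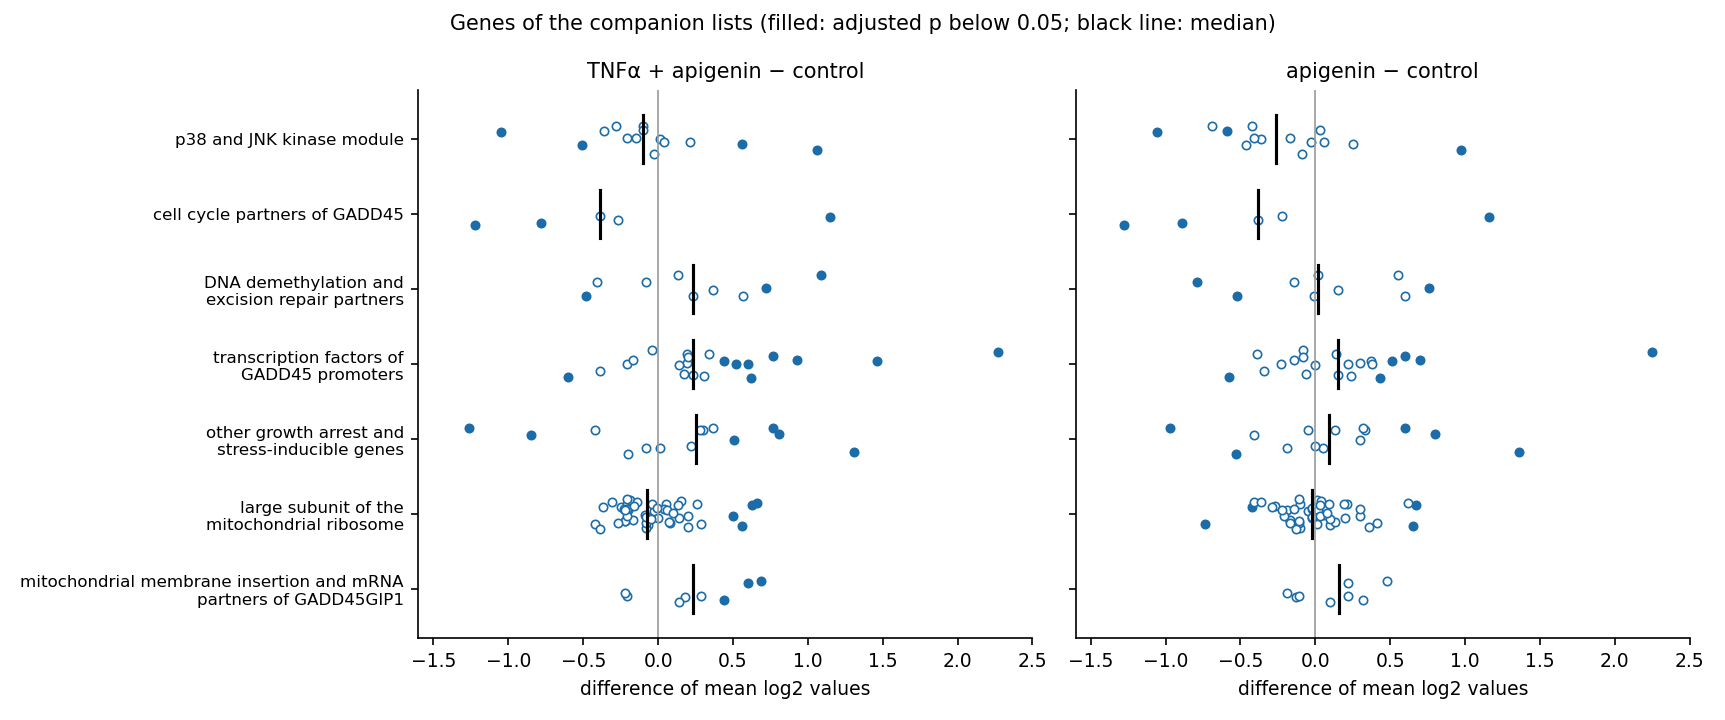
Difference of mean log2 values (horizontal axis) of each measured gene in the 7 companion lists (vertical axis) for TNFα+apigenin minus control on the left and apigenin minus control on the right; filled points had an adjusted p below 0.05 and black lines are medians. Among the GADD45 transcription factors EGR1 stands farthest right in both panels, at 2.27 and 2.25, and CDKN1A stands at 1.15 and 1.16 among the cell cycle partners.

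Of the partners in DNA demethylation and excision repair, 9 of 10 were measured. In apigenin against control TAF12, a general transcription factor subunit, rose (0.76, limma adjusted p = 0.0241), and the demethylating enzyme genes TET1 (-0.52, 0.0294) and TET2 (-0.79, 0.00986) fell, while TET3 differed by -0.01 and TDG by 0.15. In TNFα+apigenin against control 2 rose and 1 fell: ERCC4, a repair endonuclease subunit, read 5.16 to 5.73 with both agents and 3.94 to 4.57 in control (1.09, SE 0.27, limma adjusted p = 0.0156), TAF12 differed by 0.72 and TET1 by -0.48. TET1 read 1.65 to 2.0 with apigenin and 2.23 to 2.40 in control, near the bottom of the scale. The median of the list was 0.02 with apigenin and 0.23 with both. Over all genes 4.55% were called higher and 6.83% lower with apigenin, and 7.15% higher and 5.37% lower with both. These counts moved with single arrays: with 1 array left out, 0 to 2 genes were higher and 1 to 2 lower with apigenin, and 0 to 3 higher and 0 to 1 lower with both agents.

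Of 24 listed transcription factors known to act on GADD45 promoters 21 were measured. With apigenin 5 rose, 1 fell and 15 did not pass, with 12 of 21 differences above 0 and a median of 0.15, where 4.55% of all genes were called higher and 6.83% lower. EGR1, an immediate early factor, read 6.19 to 7.04 on apigenin arrays and 4.05 to 4.72 on control arrays (2.25, SE 0.22, limma adjusted p = 3.4e-05). MYC, which represses GADD45A in other cells, rose too (0.70, SE 0.14, limma adjusted p = 0.00409), as did the stress factor ATF3 (0.60, SE 0.16), and WT1 fell (-0.58, SE 0.11). With TNFα alone NFKB1, an NF-κB subunit, read 6.69 to 6.91 against 5.31 to 5.66 in control (1.25, SE 0.13, limma adjusted p = 1.8e-04), and STAT3 differed by 0.60 (limma adjusted p = 0.0498). GADD45B differed by -0.05 on the same TNFα arrays. NFKB1 was called higher with apigenin alone as well, by 0.51 (SE 0.13). With both agents against control 8 factors rose and 1 fell, NFKB1 at 1.46 and EGR1 at 2.27 among the first. In this comparison 7.15% of all genes were called higher and 5.37% lower. With 1 array left out, 2 to 6 factors were higher and 1 to 2 lower with apigenin.

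Other genes named for growth arrest or stress, such as PPP1R15A (also called GADD34, a phosphatase subunit that is no relative of GADD45), were listed too. Of 16 listed 14 were measured, and 3 rose and 2 fell with apigenin, where 11.4% of all genes were called. Leaving out 1 array gave 2 to 3 higher and 0 to 2 lower, and without the arrays numbered 3 it was 3 higher and 0 lower. SESN2, a stress-induced inhibitor of mTORC1, read 4.99 to 5.02 on apigenin arrays and 3.38 to 3.96 on control arrays (1.36, SE 0.16), PPP1R15A rose by 0.80 (SE 0.15), and SESN3 fell (-0.97, SE 0.24). With TNFα alone 3 fell and 0 rose by limma, with 5 at an unadjusted p below 0.05: DDIT4 (-0.66), an mTORC1 inhibitor, GDF15 (-0.81), a secreted stress factor, and SESN3 (-1.11). Over all genes 0.219% were called lower with TNFα alone, and 2387 had an unadjusted p below 0.05. With 1 array left out 0 to 3 of the listed genes were called lower. GADD45A, at 0.50, differed in the other sense on the same TNFα arrays and did not pass.

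GADD45GIP1 was set beside the other proteins of its ribosomal subunit. Of 49 listed large subunit genes 46 were measured. In TNFα+apigenin against control 4 rose and 0 fell by limma, with 8 at an unadjusted p below 0.05: MRPL10 (0.63), MRPL16 (0.50), MRPL44 (0.56) and MRPL50 (0.66). A share like this is near the background, since 7.15% of all genes were called higher in this comparison. At an unadjusted p below 0.05 there were 4937 of all genes. The 46 differences ran from -0.42 to 0.66 with a median of -0.07, so GADD45GIP1, at -0.73, lay below all of them; that difference between genes was not tested. With 1 array left out 1 to 4 were higher and 0 lower. With apigenin alone 2 rose, MRPL10 (0.67) and MRPL44 (0.65), and 2 fell, MRPL39 (-0.74) and MRPL1 (-0.42), with a median of -0.02, beside 4.55% of all genes higher and 6.83% lower. Leaving out 1 array gave 2 to 3 higher and 0 to 3 lower with apigenin, and without the arrays numbered 3 it was 3 higher and 0 lower. With TNFα alone limma called 0 of 46, with 2 at an unadjusted p below 0.05, and the differences ran from -0.35 to 0.37. Over all genes 0.997% were called with TNFα alone, and 2387 had an unadjusted p below 0.05.

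**Figure D4:**
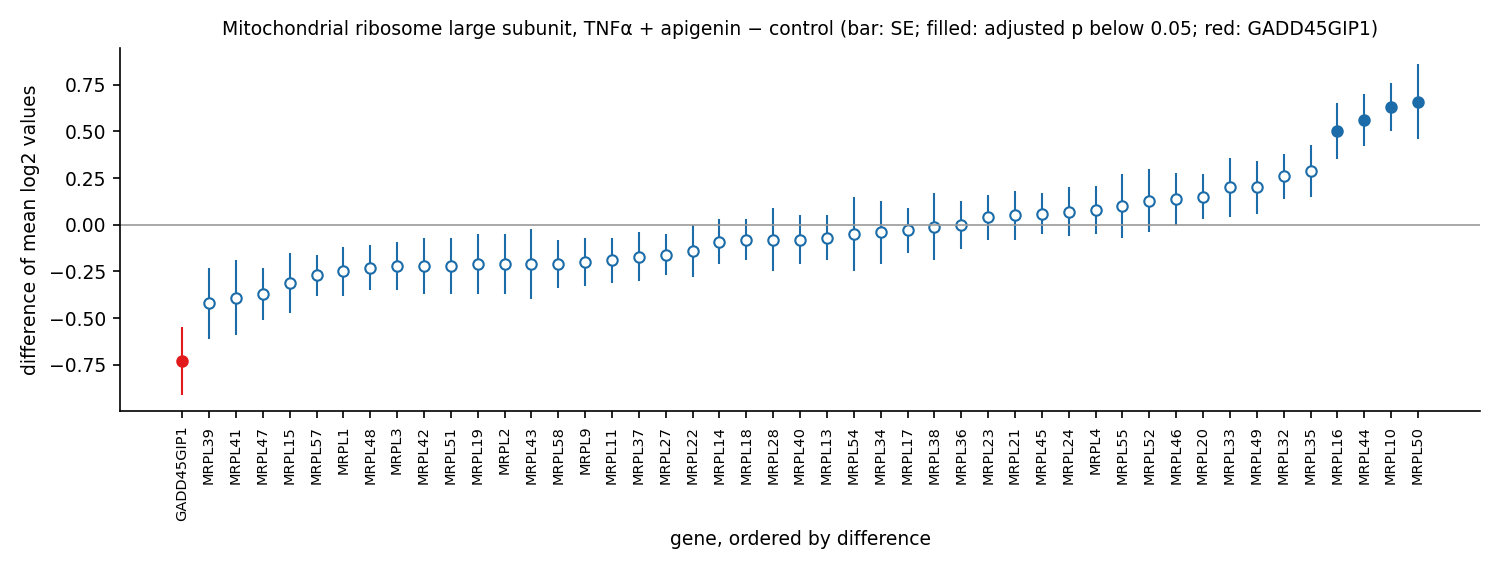
Difference of mean log2 values between TNFα+apigenin and control (vertical axis, bars are the SE) for GADD45GIP1 in red and the 46 measured genes of the mitochondrial ribosome's large subunit in blue, ordered by difference along the horizontal axis; filled points had an adjusted p below 0.05. GADD45GIP1 lies at the left end at -0.73, and the 4 filled genes at the right end lie between 0.50 and 0.66.

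Among 8 genes whose products work with GADD45GIP1 in mitochondria or the nucleus, all measured, 0 were called by limma with apigenin, with 3 at an unadjusted p below 0.05, and 3 rose with both agents. They were LETM1, an inner membrane ion exchanger (4.24 to 4.55 with both and 3.41 to 3.88 in control, 0.69, SE 0.15, limma adjusted p = 0.00825), the chaperone HSPA9 (0.44, limma adjusted p = 0.0226) and STAT3 (0.60, 0.00834). OXA1L, which receives newly made proteins at the inner membrane, differed by 0.18 (SE 0.12, limma adjusted p = 0.445) and LRPPRC, which protects mitochondrial mRNA, by 0.29 (SE 0.10, 0.0812). Over all genes 7.15% were called higher with both agents. With apigenin alone 11.4% of all genes were called, and 4638 had an unadjusted p below 0.05. With TNFα alone STAT3 was called too, at 0.60 and close to the threshold (limma adjusted p = 0.0498), where 0.778% of all genes were called higher. With 1 array left out 0 to 1 of the list were higher with TNFα alone, and 0 without the arrays numbered 3. LETM1 (0.50) and HSPA9 (0.33) were also higher with TNFα alone but did not pass.

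Genes with the pattern most like each member were taken as those with the smallest root mean square difference over the 12 arrays, after each gene was centred on its own mean, among 16149 protein-coding genes. They were picked on these same arrays, so group differences like those of the member follow from the choice. For GADD45B the nearest was SLC30A1, the zinc exporter, at 0.175 log2 units, where the median gene lay at 1.10. SLC30A1 averaged 9.02 with TNFα+apigenin, 6.59 with TNFα, 9.05 with apigenin and 6.70 in control. Next came the histone gene H2BC5 (0.245), the small G proteins RRAD (0.295) and RASD1 (0.301), and KICS2 (0.309), a part of a complex that anchors an mTORC1 regulator to lysosomes. Their apigenin differences from control ran from 1.73 to 2.48 and, RRAD aside at 0.40, their TNFα differences lay between -0.12 and -0.02.

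For GADD45G the nearest was LINS1 (0.205, median gene 0.624), with means of 4.50 in TNFα+apigenin, 3.60 in TNFα, 4.73 in apigenin and 3.60 in control cells. JAGN1 (0.217), the Mediator subunit MED31 (0.238), RNF227 (0.239) and the ribosomal protein gene RPL12 (0.241) followed, and each of the 5 was higher with apigenin alone than with both. For GADD45A the nearest were TSR1 (0.085, median gene 0.303) and KRI1 (0.099), which act in ribosome assembly, SNAPC4 (0.092), the histone methyltransferase NSD3 (0.094) and HNRNPAB (0.099). Small distances are common for a gene that moves little. For GADD45GIP1 they were the linker histone gene H1-2 (0.153, median gene 0.400), POMGNT1 (0.155), PLIN3 (0.163), HAGH (0.164) and TRIM42 (0.166), the last at only 1.35 to 1.77 in its group means.

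**Figure D5:**
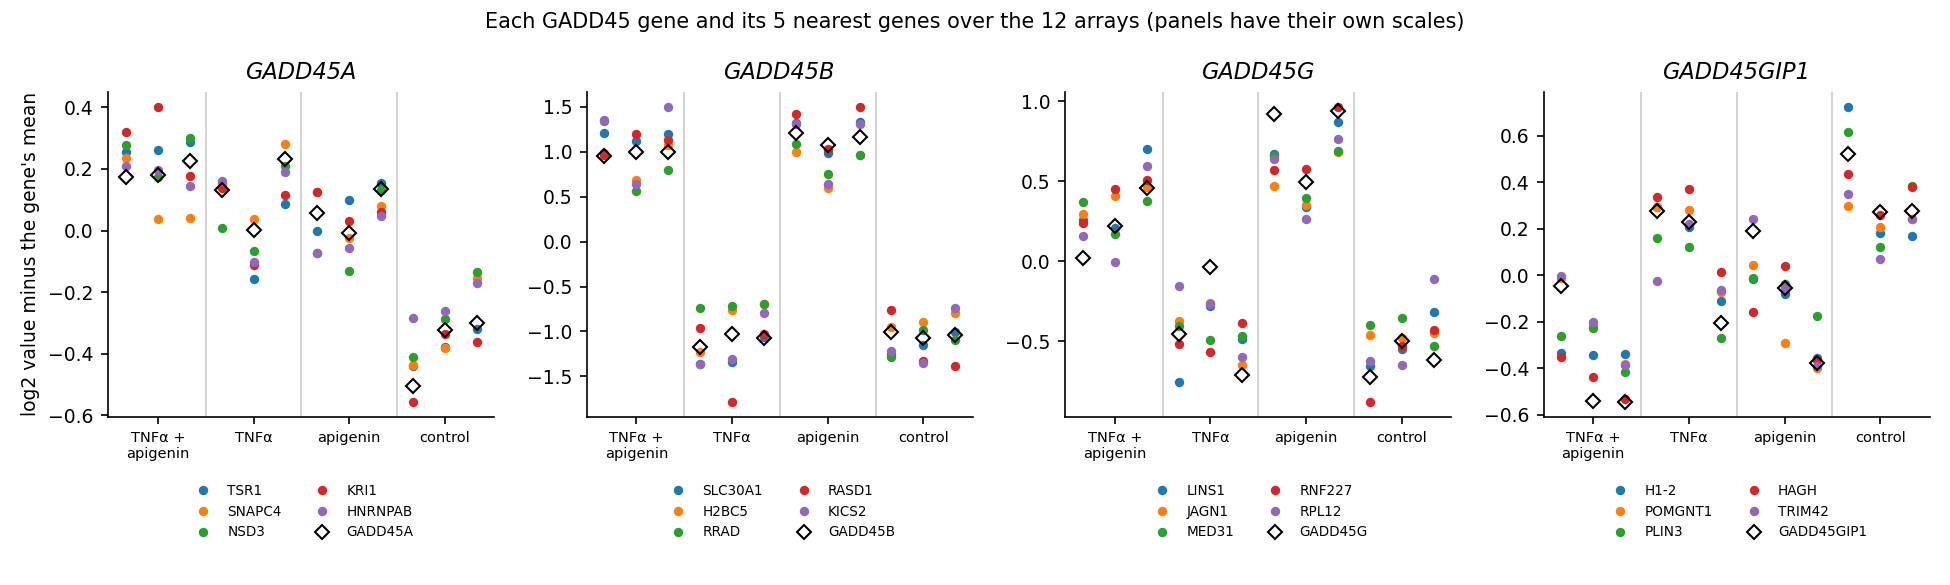
Log2 value minus the gene's own mean (vertical axis, a scale for each panel) on the 12 arrays, 3 per group (horizontal axis), for each GADD45 gene (open diamonds) and its 5 nearest genes (coloured points). The genes near GADD45B split into the 6 arrays with apigenin and the 6 without, those near GADD45G stand higher with apigenin alone than with both, and those near GADD45GIP1 are on average highest in control. The genes were picked on these arrays for their likeness to the member.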

How the data were processed

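Gene expression was measured in 12 samples of MDA-MB-231 cells on Affymetrix whole-transcript arrays. What the authors deposited is 1 log2 value for each probe set and array. Per the submitters' processing notes the tool was Affymetrix Expression Console; its version, its algorithm and the genome build: not given in the sources used here. The log2 scale and the absence of gene centring were checked on the values.

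Of 53617 probe sets 23871 had exactly 1 symbol; symbols were updated through the gene identifier where RefSeq had it. A probe set was kept if it reached the 25th percentile of its array (1.597 to 1.645) on at least 3 arrays, and a gene was read from its highest probe set on average, which left 20572 genes. All 4 members passed on all 12 arrays. Some listed genes are not analysed here.

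Group means were fitted to all arrays by limma (version 3.58.1, under R 4.3.3; functions lmFit, contrasts.fit and eBayes) with 8 residual degrees of freedom, with Benjamini-Hochberg adjustment over all genes and a threshold of 0.05. The fit was tested on simulated data. The number of arrays limits the precision.

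Named genes are the members, up to 4 called genes with the largest differences per list and comparison (any gene of lists of 10 or fewer), and the 5 genes nearest each called member, coding genes only. The members and lists were chosen with earlier results of these data known. Alternatives were other normalisation, filters, probe set summary, variance trend, fewer arrays and a replicate block.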

Additional observations from a re-analysis of the deposited data

How the results depend on the processing

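GADD45B kept its direction in all 6 comparisons under every alternative run (2.16 to 2.23 in apigenin against control with 1 array left out). GADD45G in apigenin against control (1.32 to 1.55) and GADD45A in TNFα+apigenin against control kept their calls under every alternative run. GADD45A in TNFα against control (0.50) came to pass without the filter on low values (adjusted p = 0.0485), with a variance trend (0.0224) and with the replicate block (0.0212), each of which called 1 of 4 members where the reported fit called 0, and ran from 0.43 to 0.56 with 1 array left out. The numbers 1 to 3 were not taken as pairs in the reported fit. Deviations of same-numbered arrays of different groups correlated from 0.018 to 0.464, with 13 of 18 pairs over 0.1. For arrays of other numbers the range was -0.442 to 0.102. With 11 of 12 arrays closest to an array of their own number, part of the spread went with the number, and the reported fit leaves that part in its residual. With the replicate block GADD45GIP1 passed in apigenin against control (-0.44, adjusted p = 0.0228) and in TNFα+apigenin against TNFα (-0.48, 0.0155), and the genes called moved to 632 from 205 for TNFα against control, to 3315 from 2085 for TNFα+apigenin against TNFα and to 100 from 43 for TNFα+apigenin against apigenin. With only the groups compared, GADD45A in apigenin against control (0.44) and GADD45G in TNFα+apigenin against TNFα (0.63, adjusted p = 0.0723) lost their calls. The 1 of 4 members then called in TNFα+apigenin against TNFα was GADD45B, whose values led to the choice of the family and support nothing. In these fits 73 genes were called for TNFα against control and 21 for TNFα+apigenin against apigenin. A variance trend called 4 genes for the interaction, where the reported fit called 11.

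With 1 array left out, the members called numbered 0 to 1 for TNFα, 2 to 3 for apigenin and 3 to 4 for TNFα+apigenin against control, and 1 to 2 for TNFα+apigenin against TNFα; wherever apigenin was on one side only, these counts include GADD45B, whose values led to the choice of the family and support nothing. GADD45A in apigenin against control ran from 0.37 to 0.47, GADD45G in TNFα+apigenin against TNFα from 0.48 to 0.82 and against control from 0.73 to 0.95, and GADD45GIP1 in TNFα+apigenin against control from -0.90 to -0.65. The interaction of GADD45GIP1 ran from -0.21 to 0.09 and changed sign without control replicate 2 (0.00), TNFα replicate 1 (0.05) or 2 (0.02), apigenin replicate 1 (0.09), or TNFα+apigenin replicate 2 or 3 (0.04 each); it was far from the threshold throughout. The genes called ran from 98 to 314 for TNFα, from 1534 to 2393 for apigenin, from 1191 to 2202 for TNFα+apigenin against TNFα, from 15 to 47 for TNFα+apigenin against apigenin and from 2 to 6 for the interaction.

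Leaving out the 4 arrays numbered 3, chosen after seeing the data, took GADD45A in apigenin against control to 0.44, GADD45G in TNFα+apigenin against control to 0.73 and against TNFα to 0.36, and GADD45GIP1 in TNFα+apigenin against control to -0.69, none of which passed. Counting GADD45B, whose values support nothing, 2 members stayed called against control and 1 against TNFα. The fit without these arrays called 85 genes for TNFα, 1505 for apigenin, 1288 for TNFα+apigenin against TNFα, 15 against apigenin and 2 for the interaction. In that fit the cell cycle partners kept 1 higher and 2 lower with apigenin, and the transcription factors had 3 higher and 1 lower. The causes of these shifts were not tested. Groups of 3 arrays are too small for a check on single outlying arrays.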
